A study of Mus musculus with 9 samples.

Results

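The HPYD group was compared with the model group across all genes in mouse brain RNA, to ask which transcripts differed between APP/PS1 mice that received the peptide HPYD and APP/PS1 mice that received saline. The APP/PS1 strain has a C57/6J background, overexpresses mutant forms of the amyloid precursor and of presenilin 1, and develops plaques. HPYD is a short β-sheet breaker peptide designed against the aggregation of β-amyloid. Both groups were bought at 8 months of age and were treated through the nose with 5 μL per day for 30 days, with HPYD at 33 mg/mL in saline or with saline alone, and were killed after the Morris water maze. The comparison used 6 of the 9 arrays of the series, 3 titled HPYD group and 3 titled model group. The other 3 arrays came from wild type C57/6J mice given saline (control group). In the limma fit they entered only the shared estimate of the spread. They also entered the choice of probe set, each gene's median over the 9 arrays and the analysis of variance. Some of their levels are given beside those of the groups. No source used here states the promoter of the transgenes or the sex of the mice, which is read from Xist and Uty below. Nor is it stated whether the arrays of a group came from separate mice. Each p thus rests on the spread among arrays alone, which may be technical. The tissue was labelled only as brain, so levels are averages over all brain cells, and fewer cells of a type and less RNA per cell cannot be told apart.

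In this model, microglia gather around plaques and switch on a set of lysosomal and lipid genes, while neurons carry the activity-dependent early genes and the transmitter systems. β-sheet breaker peptides bind β-amyloid and are designed to keep it from forming fibrils, so transcripts could differ through the amyloid load or apart from it. A level below is a log2 signal of the deposited table, and a difference is the HPYD mean minus the model mean on the same log2 scale, with its standard error.

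The array labelled HPYD group 3 went against its label and stood apart from the other HPYD arrays, so each result is given with it (9 arrays in the fit) and without it (8 arrays). App, which encodes the amyloid precursor, was at 12.98, 13.01 and 12.53 in HPYD group 1, 2 and 3, against 12.99, 12.95 and 13.02 in the model arrays. The third HPYD array was thus the lowest of the 6, and it lay below even the wild type arrays, at 12.56 to 12.62. Xist, the RNA of the inactive X chromosome, was at 11.33, 11.47 and 5.22 in the HPYD arrays and between 11.18 and 11.78 in the model arrays, while wild type arrays were at 5.20 to 5.69. The Y-linked gene Uty was at 4.25, 3.85 and 8.20 against 3.83 to 3.92 in the model arrays and 7.97 to 8.22 in wild type. By Xist and Uty the model arrays and HPYD group 1 and 2 had a female pattern. The wild type arrays and the third HPYD array had a male one. Sex and genotype therefore cannot be told apart where wild type levels are set beside the model arrays. The nearest array to the one labelled HPYD group 3 was model group 2, with a median absolute difference of 0.115 per gene. Both were high in cerebellar genes and low in cortical genes, and model group 1 and 2 and HPYD group 2 held high levels of muscle or granulocyte genes, as given with those genes. Array medians over all probe sets lay between 6.69 and 6.82.

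**Figure D1:**
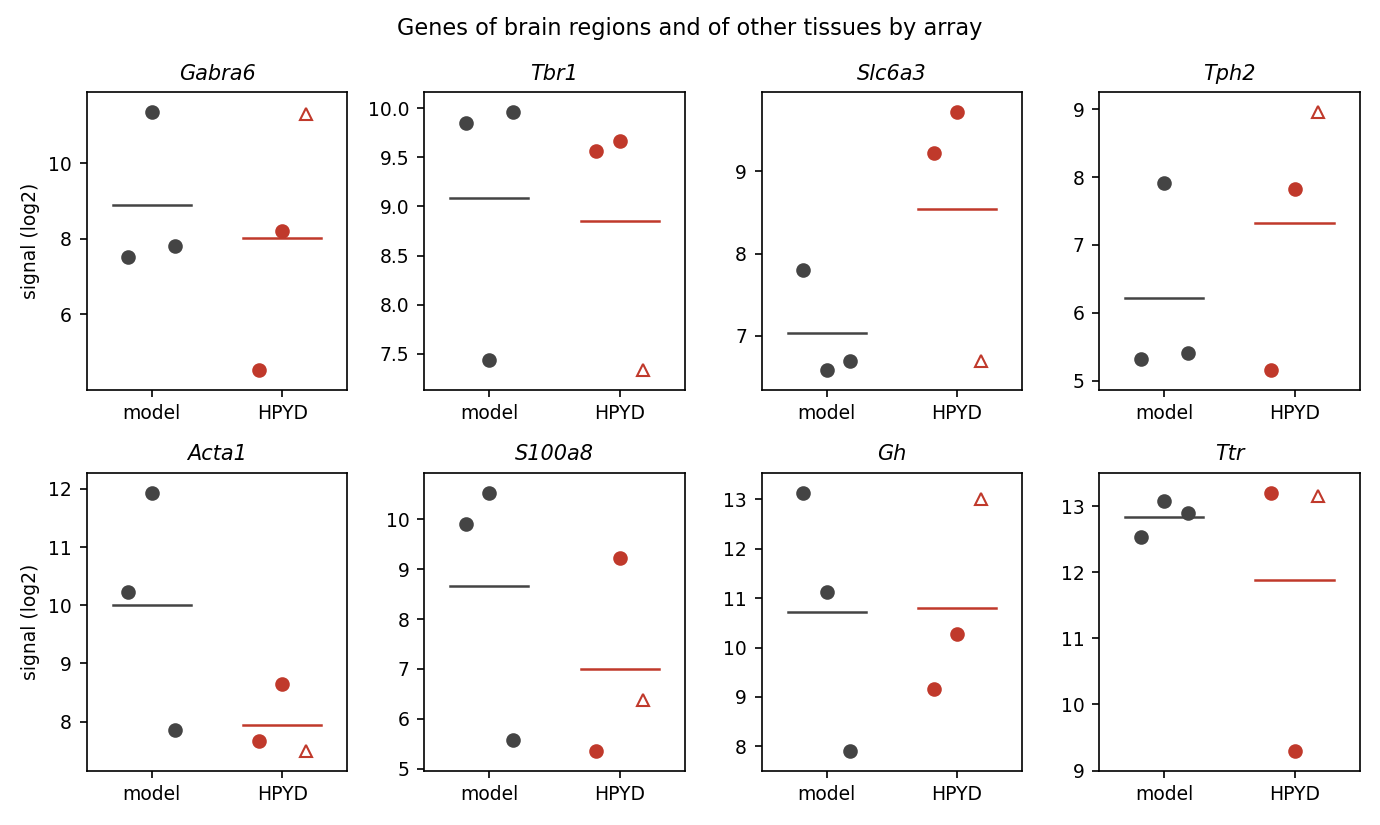
Signal (log2, vertical axis) of 8 genes of brain regions or of other tissues in each model array and each HPYD array. Points are arrays in the order 1 to 3, the open triangle is the array labelled HPYD group 3, and lines are group means. Gabra6 reached 11.29 in that array and 11.35 in model group 2, while Acta1 and S100a8 were highest in model group 1 and 2.

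Of 19938 genes, 0 (0%) passed an adjusted p under 0.05 in limma over 9 arrays and 0 (0%) did so without HPYD group 3, where the smallest unadjusted p values were 0.000814 and 0.000132. Before adjustment, p was under 0.05 in limma for 243 genes with a higher mean in the HPYD group (1.22% of genes) and for 150 with a lower mean (0.752%) over 9 arrays. The counts were 138 (0.692%) and 127 (0.637%) when HPYD group 3 was set aside. Of the 243 and 150 genes, 83 (34.2%) and 50 (33.3%) were also under 0.05, with the same sign, without that array. These counts rested on single arrays, since they were 838 and 419 without HPYD group 1 and 161 and 665 without model group 3. The Student-Newman-Keuls test after an analysis of variance, the test named in the study's methods for its other data, gave 105 and 46 genes over 9 arrays and 89 and 72 without HPYD group 3.

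Every HPYD array lay above every model array for 447 genes (2.24%) and below for 196 (0.983%). With 2 HPYD arrays against 3 model arrays the counts were 857 (4.3%) and 744 (3.73%). With 3 arrays against 3 an exact two-sided permutation test of a single gene cannot go below p = 0.1, nor can it with 2 against 3. Differences were small for most genes, with a median absolute difference of 0.06 over 9 arrays. They exceeded 1 in 14 genes upward and 89 downward, of which 11 had an unadjusted p under 0.05. The adjusted p from limma was 1 for every gene named below, both ways.

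The leading 10 genes by p with a higher mean in the HPYD group held a nuclear factor, a lipid transporter and a nicotinic receptor subunit. Cdhr2, a cadherin of brush borders, had the smallest p and was at 5.37, 5.36 and 5.29 in HPYD group 1, 2 and 3 against 4.97, 5.06 and 5.10 in model group 1, 2 and 3 (difference 0.30, standard error 0.06). Gata3, a transcription factor of serotonergic and other brainstem and midbrain neurons and of T cells, was at 6.98, 7.39 and 7.02 against 6.20, 6.39 and 5.70 (difference 1.03, standard error 0.22). Mfsd2a, which carries lysophospholipids with docosahexaenoic acid across the brain endothelium, was at 10.54, 10.75 and 10.45 against 10.23, 10.30 and 10.06 (difference 0.39, standard error 0.09). In each of these genes all HPYD arrays, the third included, lay above all model arrays. Since the genes were picked by small p from these same arrays, this separation and the narrow ranges below are no independent evidence. Without HPYD group 3 the differences were 0.33, 1.09 and 0.45, and leaving out any 1 of the 9 arrays kept them between 0.26 and 0.33, 0.84 and 1.18, and 0.30 and 0.45. The other 7 of the 10 leading genes were Gm5901, Gm9961, Chrna6, the epithelial factor Elf5, the adhesion receptor Adgrg2, the neuronal tubulin Tubb3 and Zfp469, with differences of 0.24 or more.

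The leading 10 genes by p with a lower mean held immediate early, stress and secreted signalling genes. Btg2, an antiproliferative gene induced within minutes of stimulation, was at 7.90, 8.23 and 8.20 in the HPYD arrays against 8.85, 8.81 and 8.40 in the model arrays (difference -0.58, standard error 0.14). Dusp1, a phosphatase that switches off MAP kinases, was at 10.45, 10.38 and 10.07 against 10.87, 10.85 and 10.59 (difference -0.47, standard error 0.13). Chac1, an enzyme that degrades glutathione and a target of the integrated stress response, was at 8.07, 8.11 and 8.16 against 8.34, 8.43 and 8.36 (difference -0.26, standard error 0.07). All HPYD arrays lay below all model arrays in these genes, with and without the third array. As these genes too were picked by small p from these arrays, the separation is no independent evidence. AW112010, Slco4c1, an immunoglobulin kappa variable segment, the galactosyltransferase B4galt1, the chemokine Cxcl12, Arhgap11a and the mitotic phosphatase Cdkn3 made up the 10, with differences between -0.86 and -0.26 over the whole set. Wild type levels of Chac1, at 7.69 to 7.93, lay below both groups. Those of Btg2, at 8.32 to 8.52, lay above all HPYD arrays and overlapped the model arrays. By Xist and Uty the wild type arrays also differed in sex from the model arrays.

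**Figure D2:**
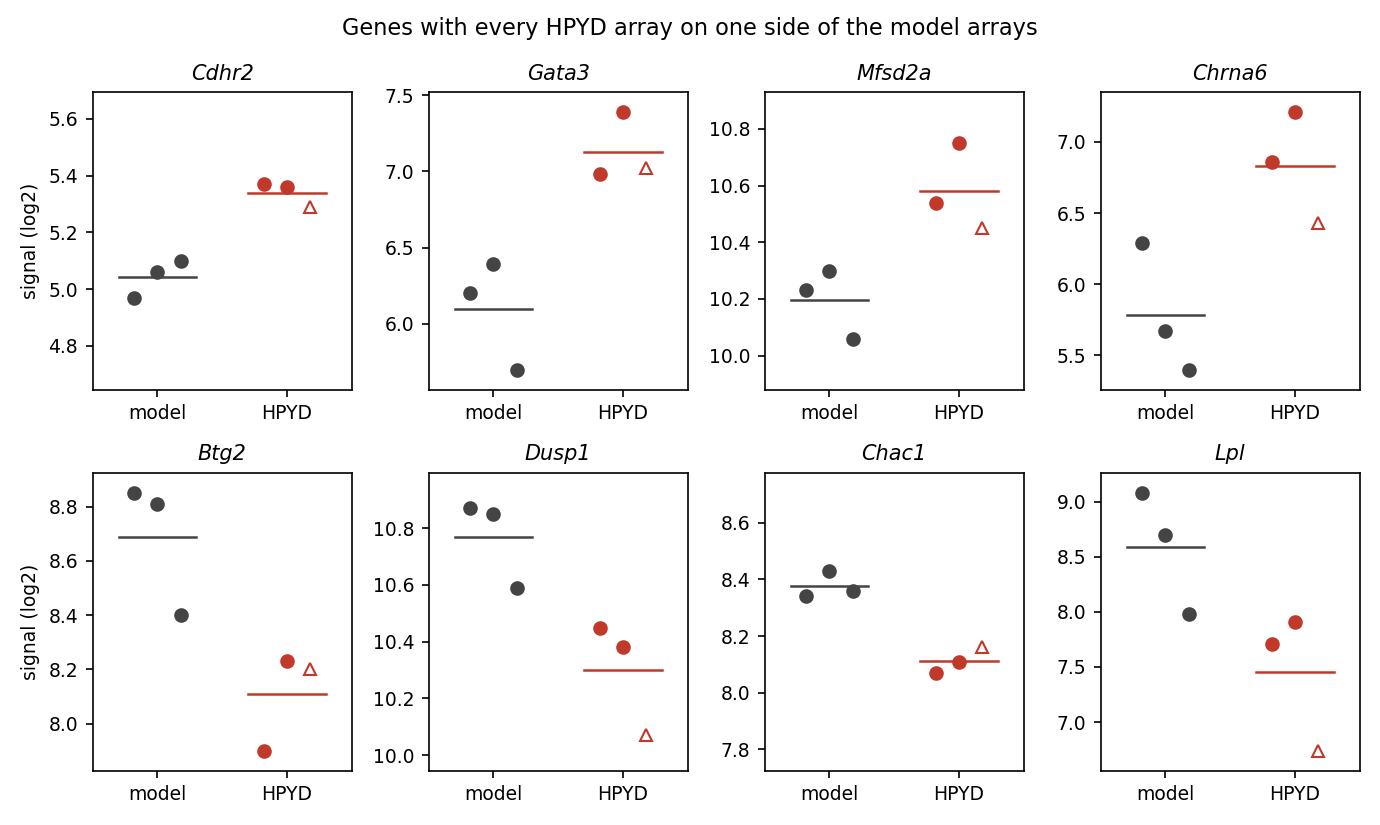
Signal (log2, vertical axis) of 4 genes with higher and 4 with lower levels in the HPYD group, in each model array and each HPYD array. Points are arrays in the order 1 to 3, the open triangle is the array labelled HPYD group 3, and lines are group means. In every panel the groups do not overlap, and for Lpl that array, at 6.74, lies farthest from the model arrays.

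Without HPYD group 3, 4 of the 10 leading higher genes and 1 of the 10 leading lower genes were the same as over 9 arrays. Fmo2, a flavin monooxygenase, had the smallest p and was at 6.99 and 7.14 in HPYD group 1 and 2, at 6.52 in the third array and between 6.44 and 6.56 in the model arrays (difference without that array 0.57, standard error 0.08). Gpt2, a mitochondrial alanine transaminase, was at 9.60 and 9.62, at 9.28 in the third array and between 9.23 and 9.39 in the model arrays (difference 0.31). Kynu, an enzyme of tryptophan breakdown, was at 4.91, 4.82 and 4.64 against 4.54 to 4.60 (difference 0.29). In Fmo2 and Gpt2 the third array thus lay within the model range, while Kynu separated the groups either way. Lower without that array were Hgh1, BC034090, Itm2a, Ugt2b37, B3gnt9, Dmac1, the AMPK subunit Prkab1, the phospholipid acyltransferase Lpcat3 and Hnrnpdl beside Btg2. Prkab1 was at 8.51, 8.69 and 8.75 against 8.86 in the lowest model array, below all model arrays both ways (differences -0.27 and -0.32).

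Some genes of midbrain dopamine neurons were among the leading genes. Those given here were named for a small p or as defining a cell type, so their shared direction is no independent evidence. Other members of the list of monoamine and cholinergic neurons, such as Pitx3 and En1, are not given. Lists of neighbouring deep regions had higher means in the same comparison, with 11 of 12 thalamic genes (median 0.23) and 14 of 16 hypothalamic and pituitary genes (median 0.39), and 9 of each (medians 0.33 and 0.13) without HPYD group 3. Their part in the dopamine genes was not tested. Slc6a3, the dopamine transporter, was at 9.22 and 9.72 in HPYD group 1 and 2 and at 6.70 in the third array, against 7.80, 6.59 and 6.70 in the model arrays. Its difference was 2.44 (standard error 0.46) without HPYD group 3 and 1.52 (standard error 0.75) with it, and the third array was at the level of model group 3. Th, the rate-limiting enzyme of dopamine synthesis, was at 8.71, 9.19 and 8.42 against 7.29 to 8.35, with a difference of 0.89 (standard error 0.39). Ddc, the decarboxylase that follows it, was at 8.37, 8.35 and 8.52 against 7.42, 8.02 and 7.46, with a difference of 0.78 (standard error 0.27). Both separated the groups with and without the third array. Slc18a2, which loads monoamines into vesicles, was at 7.65, 8.62 and 8.01 against 6.72, 7.66 and 6.29, so that HPYD group 1 lay just below model group 2 and the groups overlapped.

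Chrna6 and Chrnb3 encode nicotinic receptor subunits found in dopamine neurons. Chrna6 was at 6.86, 7.21 and 6.43 against 6.29, 5.67 and 5.40 (standard error of the difference 0.25 over 9 arrays, and difference 1.25 without HPYD group 3). Chrnb3, which assembles with it, was at 6.83, 6.87 and 6.23 against 6.33, 5.57 and 6.02, so that the third HPYD array lay below model group 1 and the groups overlapped (difference 0.67, and 0.87 without the third array). Serotonergic genes did not follow this order, since Tph2, the enzyme of serotonin synthesis, was at 5.16, 7.83 and 8.96 against 5.32, 7.92 and 5.41, and Slc6a4, the serotonin transporter, at 5.74, 7.58 and 8.71 against 6.44, 7.81 and 5.67. For both, HPYD group 2, the third HPYD array and model group 2 were high and the other arrays low. Of the 19 measured genes of the list of monoamine and cholinergic neurons, 14 had a higher mean and 5 a lower one (median 0.27). The members named here were all among those with a higher mean, and the 5 with a lower one are not named. Without HPYD group 3, 13 had a higher mean and 6 a lower one (median 0.14). Under an unadjusted p of 0.05 upward in limma were 2 (Gata3 and Ddc), and 3 without HPYD group 3 (Slc6a3, Gata3 and Th). Over all genes 1.22% and 0.692% were under 0.05 upward. There 11471 had a higher mean and 8467 a lower one, with a median of 0.02, and 10749 and 9184, with a median of 0.01, without that array.

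Btg2 and Dusp1 were the members of the immediate early gene list, whose genes are switched on by neuronal activity, that lay below the model arrays both ways. These were 2 of 30 genes, beside 0.983% of all genes below over 9 arrays and 3.73% without HPYD group 3. The median of the list changed sign with the third array. Of 30 measured genes, 27 had a lower mean in the HPYD group over 9 arrays (median -0.12). Without HPYD group 3, 19 had a higher and 11 a lower mean (median 0.12). Arc, a synaptic early gene, was at 10.08, 9.94 and 7.85 in the HPYD arrays against 9.80, 8.61 and 10.11 in the model arrays, Nr4a1 at 10.18, 9.97 and 8.55 against 10.26, 9.28 and 10.25, and Egr1 at 10.34, 10.34 and 8.97 against 10.47, 9.27 and 10.57. In all of these the third HPYD array was lowest and model group 2 next. Fos was at 7.22, 7.40 and 6.84 against 7.74, 7.26 and 7.39, where the differences were -0.31 and -0.16 and the groups overlapped. With model group 2 left out as well, the median of the list was -0.12.

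**Figure D3:**
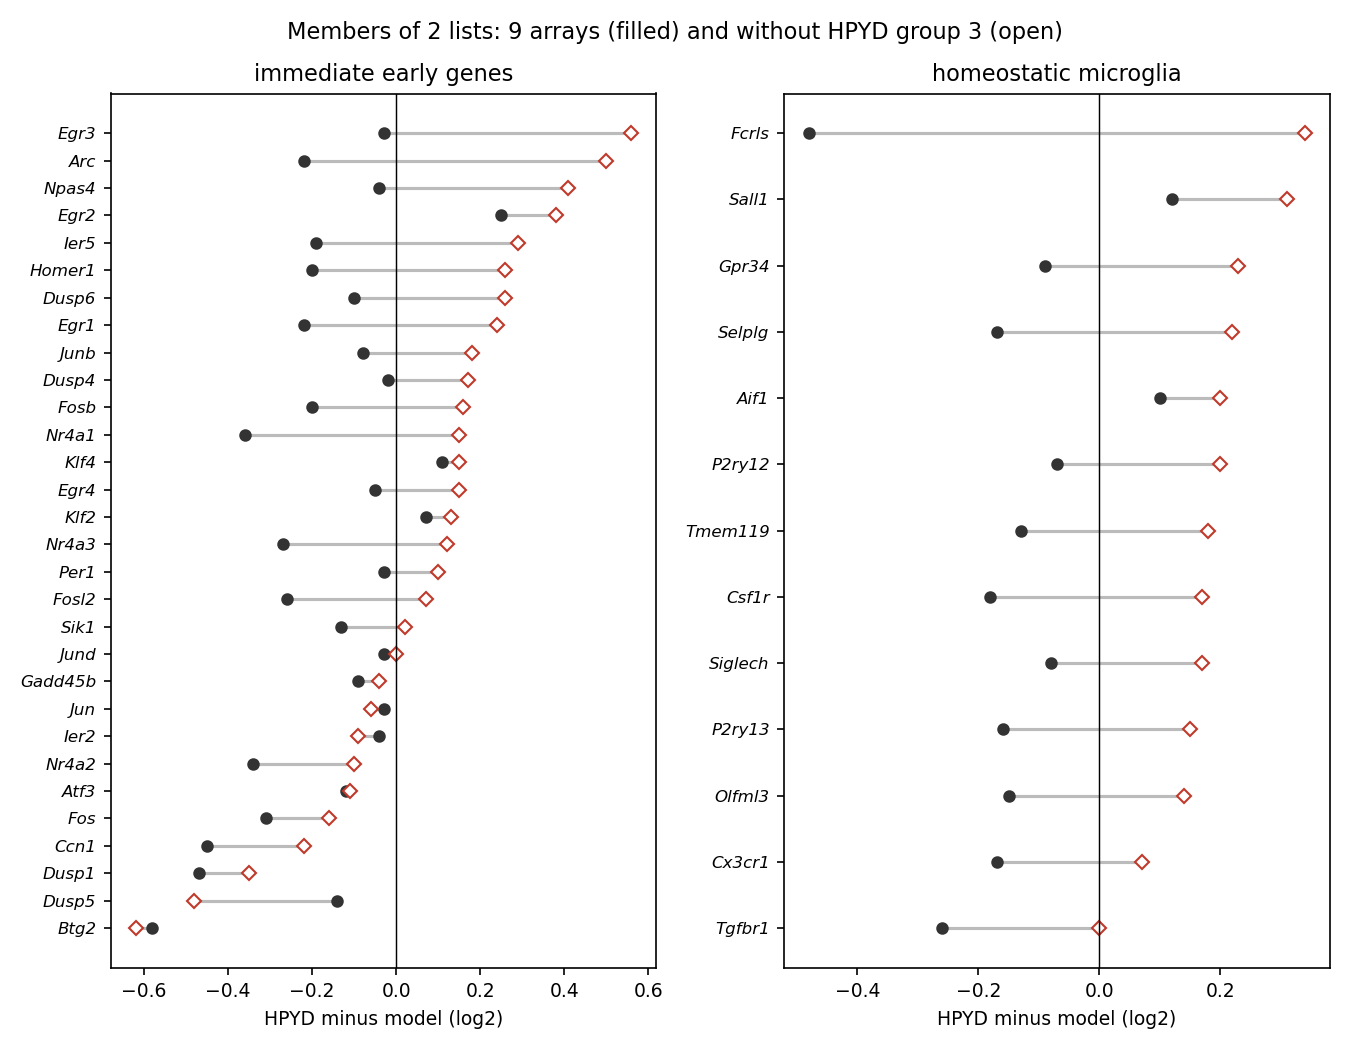
Difference between the HPYD and model means (log2, horizontal axis) of each measured immediate early gene (left) and each measured gene of homeostatic microglia (right). Filled circles are from all 9 arrays and open diamonds without the array labelled HPYD group 3. The members of the right panel shift upward without that array, while Btg2 at -0.58 and -0.62 stays at the foot of the left panel.

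The promoters of Btg2 and Dusp1 are shown because these were the early genes that separated the groups, with the cAMP response element TGACGTCA, the site bound by CREB, in capitals. They were taken from RefSeq (GRCm38.p6), each covering 250 bases before to 50 bases after the start of the gene, with both on the minus strand of their chromosome.

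Btg2, chr1:134079106-134079405: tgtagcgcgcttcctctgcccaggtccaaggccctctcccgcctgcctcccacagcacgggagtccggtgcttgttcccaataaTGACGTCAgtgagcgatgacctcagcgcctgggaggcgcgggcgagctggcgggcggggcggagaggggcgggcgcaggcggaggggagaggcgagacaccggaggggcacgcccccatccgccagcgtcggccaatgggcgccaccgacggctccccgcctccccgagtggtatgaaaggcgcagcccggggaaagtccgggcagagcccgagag

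Dusp1, chr17:26508423-26508722: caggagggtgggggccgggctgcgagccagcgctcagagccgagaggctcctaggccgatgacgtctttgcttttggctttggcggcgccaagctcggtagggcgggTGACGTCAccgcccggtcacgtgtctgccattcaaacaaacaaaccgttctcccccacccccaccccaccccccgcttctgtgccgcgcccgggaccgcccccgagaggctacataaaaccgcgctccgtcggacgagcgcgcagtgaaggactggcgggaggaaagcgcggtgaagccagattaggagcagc

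The element begins 166 bases before the start of Btg2 and 143 bases before that of Dusp1. It reads the same on both strands and was found in 588 of 32851 promoters of this length (1.79%). Of the 24 immediate early genes with a promoter in the table, 2 held it, which were Btg2 and Dusp1. A match of letters is no evidence of binding in these mice.

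Chac1 and the chaperone Hspa5 (BiP) are targets of stress pathways of the endoplasmic reticulum, and they lay on opposite sides of the model arrays. Hspa5 was at 11.83, 11.65 and 11.60 in the HPYD arrays against 11.54, 11.48 and 11.44 in the model arrays (difference 0.20, standard error 0.08, and 0.25 without HPYD group 3). Chac1, with the levels given above, had differences of -0.26 and -0.29. Their promoters, again from RefSeq, are printed with the C/EBP-ATF letters TGATGCAA in capitals for Chac1, where they stand in reverse complement, and with the endoplasmic reticulum stress element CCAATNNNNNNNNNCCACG in capitals for Hspa5. Both genes lie on the plus strand.

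Chac1, chr2:119350992-119351291: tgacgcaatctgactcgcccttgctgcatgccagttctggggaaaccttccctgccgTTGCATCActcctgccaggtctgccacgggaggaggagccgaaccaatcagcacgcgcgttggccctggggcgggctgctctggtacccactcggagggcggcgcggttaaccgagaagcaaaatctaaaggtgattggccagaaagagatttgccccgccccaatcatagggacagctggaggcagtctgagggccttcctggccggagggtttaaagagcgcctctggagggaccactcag

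Hspa5, chr2:34771840-34772139: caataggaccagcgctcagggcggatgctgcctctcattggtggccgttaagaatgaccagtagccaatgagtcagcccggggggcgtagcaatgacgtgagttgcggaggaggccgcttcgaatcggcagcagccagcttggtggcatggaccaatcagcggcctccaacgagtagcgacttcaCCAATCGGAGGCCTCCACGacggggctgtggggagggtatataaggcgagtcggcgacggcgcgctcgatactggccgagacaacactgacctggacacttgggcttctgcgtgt

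On either strand TGATGCAA was found in 294 promoters (0.895%), and in 5 of 15 genes of the integrated stress response list with a promoter, among them Chac1. The longer element was found in 39 promoters (0.119%), and in 3 of 12 genes of the chaperone list (Hspa5, Calr and Hsp90b1). The 16 genes of the integrated stress response list had a median difference of 0.00 over 9 arrays and -0.03 without HPYD group 3, with Chac1 the single member under an unadjusted p of 0.05 both ways, beside 0.752% and 0.637% of all genes with a lower mean. The stress-induced genes Sesn2 and Ppp1r15a had differences of -0.11 and -0.16 with overlapping groups. Of 15 chaperone genes 10 had a higher mean (median 0.06), and 12 without HPYD group 3 (median 0.07), where Hspa1a, at 8.77 and 8.59 against 8.23 to 8.46, and Dnajb1, at 9.62 and 9.34 against 8.88 to 9.22, also lay above the model arrays. In the third array both were within or below the model range, at 8.42 and 8.74.

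Genes of homeostatic microglia, the resting immune cells of the brain, turned with the third array. Of 13 measured genes, 11 had a lower mean over 9 arrays (median -0.15) and 13 had a higher mean without HPYD group 3 (median 0.18), of which Tgfbr1 by 0.00. The defining receptor P2ry12 was at 8.04, 7.75 and 7.07 in the HPYD arrays against 7.83, 7.27 and 7.98 in the model arrays, and Tmem119 at 8.85, 8.95 and 7.98 against 8.78, 8.31 and 9.08. The third HPYD array and model group 2 were again the lowest. With model group 2 also left out, the median was -0.03.

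Genes of plaque-associated microglia had no common direction. Of 22 measured genes 17 had a lower mean over 9 arrays (median -0.12), and 12 a higher and 10 a lower mean without HPYD group 3 (median 0.04). Cst7, an inhibitor of lysosomal cathepsins that marks these cells, was at 10.04, 9.46 and 6.21 against 9.36, 8.14 and 9.75, and Trem2, their lipid-sensing receptor, at 9.14, 8.94 and 7.61 against 8.80, 8.04 and 9.05. Tyrobp, the adaptor of that receptor, was at 10.68, 10.81 and 8.54 against 10.70, 10.26 and 10.58. In all of these genes HPYD group 1 and 2 lay at or above the middle of the model arrays and the third array below all of them. Lpl, lipoprotein lipase, was the 1 gene of the list below the model arrays both ways, beside 0.983% and 3.73% of all genes. It was at 7.71, 7.91 and 6.74 against 9.08, 8.70 and 7.98 (difference -1.14, standard error 0.36, and -0.78, standard error 0.32). Fat and muscle cells also express Lpl, and the genes of both were high in model group 1 and 2, as given with those lists. Their part in this result was not tested.

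The genes that the study's text and primer table name, among them genes of the C-type lectin, NOD-like receptor and RIG-I-like receptor pathways, mostly had lower means in the HPYD group. Since the study picked them from these same arrays, the direction they share in the arrays is no independent evidence. The study also measured these genes by quantitative PCR and reports a good match with its arrays. The PCR values were not examined here. Of the 18 genes, 17 had a lower mean over 9 arrays (median -0.31) and 16 without HPYD group 3 (median -0.29), and 6 lay below all model arrays both ways, where the share over all genes was 0.983% and 3.73%. Fcgr4, an activating Fc receptor, was at 4.96, 5.06 and 4.79 against 5.72, 5.86 and 5.08 (difference -0.62, standard error 0.19). Casp1, the inflammasome protease, was at 5.38, 5.43 and 5.12 against 6.07, 5.66 and 5.58 (difference -0.46), and Naip5, a receptor of bacterial flagellin, at 4.49, 4.47 and 4.33 against 4.96, 4.89 and 4.59 (difference -0.38). The other 3 were the phospholipase Pla2g4a, the GTPase Irgm1 and the RNA sensor Ifih1, with differences of -0.23, -0.17 and -0.21.

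By the median of the list, model group 1 and 2 were the high arrays and model group 3 lay near the HPYD arrays. Rsad2, an interferon-induced antiviral gene, was at 6.22, 6.72 and 6.45 against 7.31, 7.77 and 6.53, and Ptprc, the leukocyte antigen CD45, at 6.83, 7.16 and 6.44 against 7.73, 7.71 and 6.96. Casp4, an inflammatory caspase, was at 4.85, 5.06 and 4.98 against 5.41, 5.32 and 5.03. Set against each gene's median over the 9 arrays, the 18 genes lay at a median of 0.43, 0.41 and 0.08 in model group 1, 2 and 3, while the HPYD arrays lay at 0.00, 0.09 and -0.07. The 13 C-type lectin and Fc receptor genes all had a lower mean over 9 arrays (median -0.40), and 8 had one without HPYD group 3 (median -0.18). Scn9a, a sodium channel of sensory and some central neurons, was the named gene with a higher level, at 6.85, 7.04 and 8.01 against 6.65, 6.59 and 6.19 (difference 0.82, standard error 0.28, and 0.47, standard error 0.14, without the third array).

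The pathway lists share members with the genes the study names, 4 in the list of NOD-like receptors, 3 in that of RIG-I-like receptors, 3 in the type I interferon response and 3 among C-type lectin and Fc receptors, so their counts are not independent of those genes. With these members included, 23 of 26 genes of NOD-like receptors and the inflammasome (median -0.10) and 16 of 22 antiviral genes around the RIG-I-like receptors (median -0.06) had a lower mean, and 20 and 16 had one without HPYD group 3 (medians -0.09 and -0.04). The type I interferon response had a median of 0.00 both ways, with 14 and 13 of 26 genes higher. Chemokines and cytokines had medians of -0.01 and -0.03. Complement genes had a lower mean in 13 of 14 cases over 9 arrays (median -0.25) and in 8 without the third array (median -0.02), and C4b, which is induced around plaques, was at 9.04, 9.08 and 7.91 against 8.91, 8.43 and 8.75.

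Skeletal muscle genes gave the largest list difference, and they were high in model group 1 and 2. All 28 measured genes had a lower mean in the HPYD group both ways, with medians of -1.59 and -1.44. Acta1, skeletal muscle actin, was at 7.67 and 8.64 in HPYD group 1 and 2, lowest in the third HPYD array, against 10.23, 11.93 and 7.86, and the myosin Myh4 at 5.46, 6.81 and 5.49 against 8.09, 9.75 and 5.70. HPYD group 2 was the highest of its group. Set against each gene's median over the 9 arrays, the list lay at 1.88, 3.46 and -0.10 in model group 1, 2 and 3 and at -0.10, 0.55 and -0.01 in HPYD group 1, 2 and 3. Without model group 2 the median over the remaining arrays was -0.71. Actn2, a Z-disc protein also found in neurons, lay below all model arrays both ways (differences -1.14 and -0.70).

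Genes of granulocytes and their bone marrow precursors were high in the same model arrays. All 18 had a lower mean both ways (medians -1.26 and -0.96). S100a8 was at 5.36, 9.23 and 6.38 against 9.91, 10.53 and 5.57, and the granule gene Ngp at 6.84, 11.66 and 8.52 against 12.33, 12.45 and 6.05, so that HPYD group 2 joined model group 1 and 2 while HPYD group 1 and model group 3 were the lowest. The median of the 10 adipocyte genes was -0.59 and -0.61, with Ucp1, the uncoupling protein of brown fat, at 4.78, 6.00 and 5.17 against 9.17, 6.12 and 5.21, and that of 10 erythroid genes -0.39 and -0.31. Without model group 2 the erythroid median was 0.08 over the other arrays and 0.13 with HPYD group 3 also set aside, and the granulocyte median was -0.59 and -0.32. Without model group 3 the medians were -0.86 and -0.76 for erythroid genes and -2.67 and -2.32 for granulocytes.

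Lists of cell division and fat metabolism had lower means in the HPYD group both ways and were high in the same model arrays. All 21 genes of the cell cycle and mitosis had a lower mean (medians -0.42 and -0.41). Prc1, which bundles the spindle midzone, was at 4.96, 5.10 and 4.94 against 5.44, 5.68 and 5.11, and Dbf4, the activator of a replication kinase, at 4.94, 4.86 and 4.95 against 5.15, 5.22 and 5.07, both below all model arrays. The median was -0.22 without model group 2, and the list lay at 0.48, 0.95 and -0.04 in model group 1, 2 and 3 and between -0.14 and 0.12 in the HPYD arrays. Of 17 genes of fatty acid oxidation 16 had a lower mean over 9 arrays (median -0.16) and 17 without HPYD group 3 (median -0.22). Pdk4, the kinase that shuts glucose out of oxidation, was at 8.77, 9.01 and 8.55 against 10.30, 9.97 and 8.80, and Acadm, a dehydrogenase of medium-chain fatty acids, at 9.48, 9.55 and 9.68 against 10.03, 9.93 and 9.60. Of 20 genes of lipid synthesis and lipolysis, 19 and 17 had a lower mean (median -0.17 both ways), among them the hormone-sensitive lipase Lipe at 7.98, 8.09 and 8.07 against 8.43, 8.46 and 8.08.

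Without model group 1, model group 2 and HPYD group 2, so that HPYD group 1 and 3 were set against model group 3 alone, the medians were 0.04 for skeletal muscle, 0.20 for granulocytes, 0.07 for adipocytes, -0.04 for the cell cycle, 0.13 for fatty acid oxidation and -0.03 for lipid synthesis. For the genes the study names the median was then -0.14. With 1 model array these are values without a spread of their own group. The part of muscle, fat and blood cell RNA in the differences of the other lists was not tested.

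**Figure D4:**
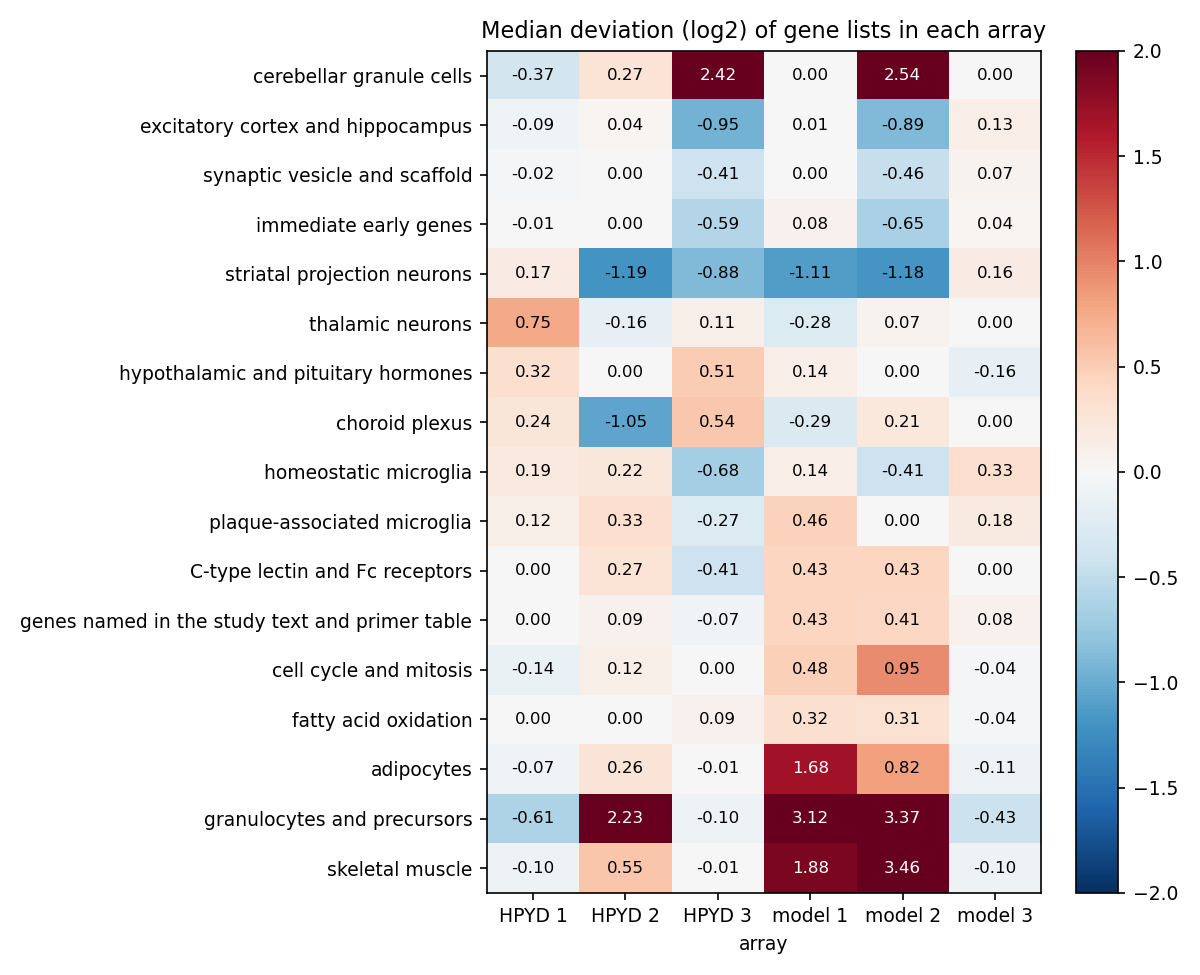
Median deviation (log2) of the genes of 17 lists in each HPYD and model array, each gene set against its own median over the 9 arrays of the series. The colour scale ends at -2 and 2, and the printed numbers are the values. Cerebellar genes were high in the array labelled HPYD group 3 (2.42) and in model group 2 (2.54), and skeletal muscle genes in model group 1 (1.88) and model group 2 (3.46).

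Genes of brain regions differed between arrays more than between the groups. Gabra6, a GABA-A receptor subunit of cerebellar granule cells, was at 4.54, 8.20 and 11.29 in the HPYD arrays against 7.51, 11.35 and 7.81 in the model arrays, and the granule cell gene Cbln3 at 5.95, 9.07 and 12.06 against 8.56, 12.11 and 8.67. Tbr1, a transcription factor of cortical projection neurons, ran the other way, at 9.56, 9.66 and 7.34 against 9.85, 7.44 and 9.96. The 12 cerebellar genes had a median difference of -0.01 over 9 arrays and -0.85 without HPYD group 3, and with model group 2 also left out the median was 0.05. The 15 genes of excitatory cortex and hippocampus had medians of -0.08 and 0.25, and the 17 of synaptic vesicles and scaffolds -0.02 and 0.10.

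Deeper regions followed other arrays. Drd2, the dopamine receptor of striatal projection neurons, was at 10.49, 8.44 and 9.22 against 8.72, 8.90 and 10.34, so that HPYD group 1 and model group 3 were the highest. Thalamic genes had a higher mean in 11 of 12 cases over 9 arrays (median 0.23), and Tcf7l2, a thalamic transcription factor, was at 10.22, 8.86 and 9.71 against 8.60 to 9.15. The median of that list was 0.33 without HPYD group 3, 0.05 without HPYD group 1, 0.08 without model group 1 and -0.20 without both HPYD group 1 and 3, which leaves 1 HPYD array. Hypothalamic Hcrt and Pmch were highest in HPYD group 1, at 9.27 and 9.13, at levels of 5.14 to 7.64 in the other arrays. The pituitary hormone Gh was at 9.15 and 10.27 in HPYD group 1 and 2 against 13.13, 11.12 and 7.91, and the third HPYD array was close to model group 1. Ttr, the main secreted protein of the choroid plexus, was at 13.20, 9.30 and 13.15 against 12.54, 13.08 and 12.89, low only in HPYD group 2 among these 6 arrays.

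No gene of the amyloid list separated the groups over 9 arrays, where 2.24% of all genes lay above and 0.983% below. Without HPYD group 3, 1 of its 14 measured genes lay above the model arrays, beside 4.3% of all genes. App had a difference of -0.15 (standard error 0.12) over 9 arrays and 0.01 (standard error 0.06) without HPYD group 3. Prnp, which encodes the prion protein, was at 12.54, 12.47 and 11.52 against 12.55, 12.42 and 12.50, with differences of -0.31 and 0.02. Bace1, the β-secretase, was at 10.20, 10.47 and 10.32 against 10.39, 10.32 and 10.44 (difference -0.05), and Adam10, the main α-secretase, at 9.65, 9.49 and 9.64 against 9.64, 9.74 and 9.64 (difference -0.08). The γ-secretase genes Psen2, Psenen, Ncstn, Aph1a and Aph1b had differences between -0.06 and 0.02 over 9 arrays, and Aplp1, Aplp2, Bace2, Adam17 and Itm2b between -0.10 and 0.03. Of 14 measured genes of the list 10 and 11 had a lower mean, with a median of -0.05 both ways. Among clearance genes, Apoe was at 12.56, 12.63 and 12.33 against 12.49, 12.45 and 12.48, above the model arrays only without the third array (difference 0.12, standard error 0.06).

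Smaller groups of genes held members that separated the groups both ways. Over all genes, 2.24% lay above and 0.983% below the model arrays over 9 arrays, and 4.3% and 3.73% without HPYD group 3. The clock list of 16 genes and the glucocorticoid list of 14 each held 1 gene above and 1 below over 9 arrays. Plin4, a lipid droplet protein induced by glucocorticoids, was at 7.96, 8.07 and 7.61 against 7.42, 7.60 and 7.33 (differences 0.43 and 0.56, standard errors 0.16 and 0.15), while the list of 14 glucocorticoid-responsive genes, which also holds Dusp1, had medians of 0.05 and 0.10. Per3, a component of the circadian clock, was at 8.30, 8.31 and 8.48 against 7.97, 8.17 and 8.13 (differences 0.28 and 0.22), and its partner Per2 at 8.69, 8.68 and 8.38 against 8.33, 8.19 and 8.42, which overlapped only through the third array. Nfil3, a clock repressor, lay below the model arrays, at 7.68, 7.75 and 7.79 against 7.94, 7.98 and 7.83. No source used here gives the time of day of killing.

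In glia and vessels, Sox10, a transcription factor of the oligodendrocyte lineage, was at 8.56, 8.66 and 8.80 against 8.45, 8.24 and 8.48 (difference 0.28, standard error 0.10). Its list, of 8 oligodendrocyte precursor genes, had 5 with a higher and 3 with a lower mean both ways (medians 0.10 and 0.09). Without model group 2 its median was -0.05, and 0.01 with HPYD group 3 also set aside. The 13 myelin and oligodendrocyte genes had medians of -0.02 and 0.00. Tek, the angiopoietin receptor of endothelium, was at 7.93, 7.79 and 8.11 against 8.13, 8.12 and 8.20, and Tfrc, the transferrin receptor, at 8.58, 8.60 and 8.57 against 8.74, 8.87 and 8.87. Both lay below the model arrays both ways, where 0.983% of all genes did over 9 arrays and 3.73% without HPYD group 3. Tfrc also belongs to the erythroid list, which lay at 0.56, 1.49 and -0.28 in model group 1, 2 and 3, and the part of red cell precursors in its difference was not tested. The tight junction gene Cldn5 overlapped between the groups (difference 0.03), and the 15 endothelial and mural genes, which include Mfsd2a, had medians of -0.02 and -0.06. Gfap, the filament of reactive astrocytes, was at 10.47, 10.88 and 9.65 against 10.65, 10.07 and 10.44, with differences of -0.05 and 0.29.

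Of the 55 gene lists, 30 had an absolute median difference of 0.1 or less both ways. A median below -0.1 both ways was found in 10 and one above 0.1 both ways in 3, the thalamic, hypothalamic and pituitary, and monoamine lists. Medians moved from one side of 0 to the other by more than 0.05 on each side in 3 lists, those of immediate early genes, homeostatic microglia and excitatory neurons. Respiratory chain, redox, cholesterol, glycolysis, insulin and tau genes had medians between -0.04 and 0.04, and the housekeeping gene Actb had differences of -0.07 and -0.02.

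**Figure D5:**
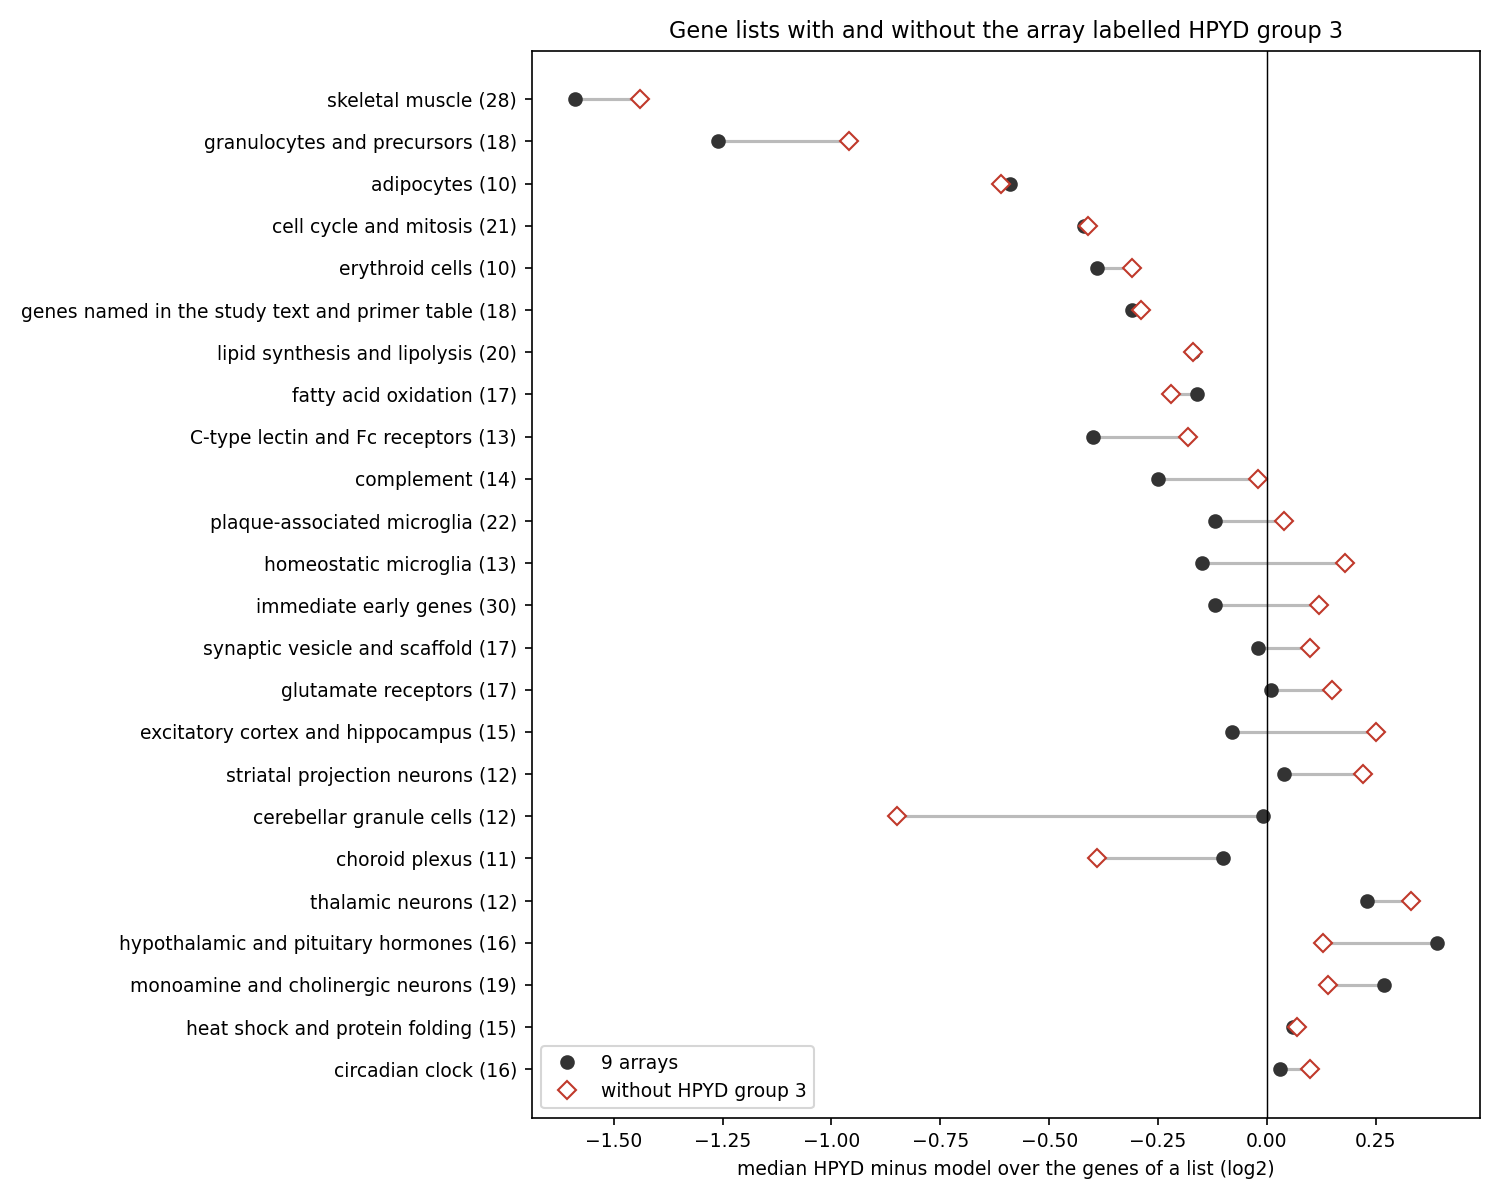
Median difference between the HPYD and model means (log2, horizontal axis) over the measured genes of 24 lists, with their number in brackets. Filled circles are from all 9 arrays and open diamonds without the array labelled HPYD group 3. Muscle, granulocyte and fat lists stay below 0 both ways, and the cerebellar list moves from -0.01 to -0.85.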

How the data were processed

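RNA of mouse brain was hybridised to 9 Affymetrix arrays (GeneChip Mouse Gene 1.0 ST), with 3 in every group. The authors deposited log2 values, with MAS5 named in the submitters' processing notes; no source used here gives the normalization steps or the annotation version. The labels and the methods describe different RNA extraction and labelling kits. Of 35556 probe sets, 21789 had 1 gene symbol, 1621 several and 12146 none in the platform annotation. One probe set was kept for each of 19938 genes (999 had several). The number of arrays limits the precision.

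The deposited values were fitted with limma 3.58.1 in R 4.3.3 (lmFit, contrasts.fit and eBayes) over all 9 arrays, with Benjamini-Hochberg adjustment over all genes and a threshold of 0.05, and again over 8 arrays without HPYD group 3, whose levels went against its label. The fit was run on simulated arrays with known changes and independent noise for each gene. These lacked the differences shared by many genes between the arrays here, so the run checks the code and not the calls. The genes named were the 10 with the smallest p in each direction in either fit, up to 4 leading members of each list described, genes that define a cell type, and all genes of the amyloid, study-named, sex-linked and housekeeping lists. The members and lists were chosen with earlier results of these data known. Lists are described by counts and medians with no test. Alternatives were quantile normalization, a shift to one median, leaving out the dimmest 33.3% of genes, trend and robust options, array weights, the HPYD and model arrays alone, a replicate block, the mean of all probe sets, an analysis of variance, and leaving out arrays.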

Additional observations from a re-analysis of the deposited data

How the results depend on the processing

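In limma, 0 genes passed an adjusted p under 0.05 under every alternative run, both ways, and 0 when any 1 array was left out. The analysis of variance over the 3 groups, which is not the test of HPYD against model alone, had 5 genes past the adjusted threshold without HPYD group 3. Counts at an unadjusted p under 0.05 depended on the setting. Over 9 arrays, against 243 higher and 150 lower genes, the counts were 84 and 74 without the dimmest 33.3% of genes, 156 and 79 with the HPYD and model arrays alone, and 105 and 46 by Student-Newman-Keuls. Lower genes numbered 229 after quantile normalization and 98 with array weights. Without HPYD group 3, against 138 and 127, the counts were 70 and 76 without the dimmest genes and 89 and 72 by Student-Newman-Keuls. With model group 1, model group 2 and HPYD group 2 also left out they were 511 and 501, but this sets 1 HPYD array against 1 model array, with the spread taken from the control group, and says nothing about stability. With only HPYD group 3 set aside, the lower genes numbered 80 with array weights and 56 with the HPYD and model arrays alone. Leaving out 1 array gave 138 to 838 higher and 105 to 665 lower genes over 9 arrays, and 97 to 729 and 72 to 595 without HPYD group 3. The 729 came from leaving out HPYD group 1 as well, so that 1 HPYD array, assumed to vary like the other groups, stood against 3. The cause of these shifts was not tested.

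With a replicate block the counts were 160 higher and 174 lower over 9 arrays and 177 and 239 without HPYD group 3. Deviations of same-numbered HPYD and model arrays correlated at 0.03, -0.20 and -0.32 over genes, so no pairing by number was seen. The differences between arrays in cerebellar, muscle and granulocyte genes enter these correlations. The correlations therefore cannot decide whether the numbers paired the arrays. Over all settings, 155 list medians moved by more than the spread between arrays and 1768 did not, and 542 values of named genes changed sign and 9532 did not. The spread was that of each list, so lists that varied most between arrays counted as unmoved most readily. Without model group 2 the erythroid median went from -0.39 to 0.08 and the cerebellar median from -0.01 to 0.71. Both were counted as unmoved. Of 291 named genes, 55 over 9 arrays and 56 without HPYD group 3 were among the dimmest 33.3% and have no value in that setting, among them Cdhr2, Chrna6, Chrnb3, Fcgr4, Casp1, Casp4, Naip5, Kynu, Prc1 and Dbf4 both ways.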
